A study of Mus musculus with 13 samples.

Results

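The genes described are 10 members of the NRF2 antioxidant response, chosen by their function, with earlier results of these data known. They are the transcription factor Nfe2l2 (NRF2) and its inhibitor Keap1, and the targets Nqo1, Gclc, Gclm, Txnrd1, Srxn1, Slc7a11, Gsta4 and Gpx2. All 10 were found among the 55353 genes of the count files. Their raw UMIs were read in 6 cell types of mouse liver, namely biliary epithelial cells (BECs), hepatocytes, liver sinusoidal endothelial cells (LSECs), macrophages, neutrophils and T cells, which together held 56966 of the 95563 barcodes with at least 1500 UMIs. The 13 scRNA-seq libraries came from young adult male C57BL/6J mice, which in all groups but D0 were fed chow with 0.1% DDC, a dihydrocollidine compound whose porphyrin products injure bile ducts and liver. Livers were taken at D0 (steady state), at D3 and D5 (onset), and at D9, D19 and D25 (progression), by both of the cell isolation protocols, A and B. A further library of protocol B (STOP) followed a prolonged diet with 7 days of recovery. No genotype or agent other than the diet set the groups apart, and all libraries share the strain and the genetic background.

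NRF2 is a transcription factor that KEAP1 holds in the cytoplasm and marks for degradation. Oxidants and electrophiles modify cysteines of KEAP1, NRF2 then builds up, enters the nucleus and binds antioxidant response elements together with small MAF proteins. Its targets make glutathione, keep thioredoxin reduced and conjugate or reduce reactive compounds, and in liver the pathway is known for its part in the handling of drugs, bile acids and porphyrins.

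Protocol A mixed living singlets with cells gated on Cd45, on Pdpn, on Epcam, on Lyve-1, on Cd31 in the absence of Lyve-1, and on retinoid autofluorescence. Protocol B mixed living cells of a stellate cell preparation with gates for T cells (Cd3e), epithelium (Epcam) and Itgax-positive leukocytes without Cd64, so that Cd64, a macrophage marker, was gated against in part of it. The labels do not say which mice went into which library, and p-values therefore measure the spread between libraries, which differ in protocol as well. The kits differed between protocols too (single index in A, dual index in B). A second label of the D19 library of protocol B names the day before. Libraries held 29307190 to 108602421 UMIs and 1541 to 14764 cells, and pairs of libraries shared 0.0459% to 0.519% of the barcodes of the smaller one.

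Cell types were named from marker genes after clustering without the 10 genes, so each name stands for cells like that type. There were 4873 BECs, 760 hepatocytes, 24931 LSECs, 12287 macrophages, 5092 neutrophils and 9023 T cells. A library entered for a type with at least 20 cells, which left 9 atlas libraries for BECs, 4 for hepatocytes, 12 for LSECs, 12 for macrophages, 11 for neutrophils and 10 for T cells. BECs at steady state came from D0 A alone (781 cells) and at onset from protocol B alone, and the hepatocytes came from D0 A (23 cells), D9 B (33 cells), D19 B (25 cells) and D25 B (206 cells), so that for hepatocytes diet and protocol cannot be told apart. Clusters in which markers of another type scored high beside those of the leading type stayed unnamed, among them 3024 LSEC-marker cells with hepatocyte markers, of which 2991 came from D0 A. Also unnamed, and so outside all BEC levels and shares, were 1049 cells of a cluster with 15 BEC markers beside 6 cDC1 markers. Some named clusters still held a few markers of another type, such as 6 hepatocyte markers in each of a pair of BEC clusters and 5 monocyte markers in a macrophage cluster. A cluster of 1386 cells, of which 1369 came from D0 B, made up most of the steady state T cells. Levels are given in CPM, the UMIs of a gene per 1000000 UMIs of that cell type in that library.

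RefSeq promoter windows of GRCm38.p6, reaching from 250 bases before a transcript start to 50 bases after it, were at hand for 8 of the 10 genes in 10 windows. They were searched on both strands for the core of the antioxidant response element, TGACNNNGC, which was present in 12.4% of all 32851 windows of that length. The core was found once each in 4 windows of 4 genes. They are shown because 3 of these genes, Gclm, Srxn1 and Txnrd1, are the ones that passed the test in macrophages, and the fourth encodes NRF2 itself. A match says only that these letters are present. Binding by NRF2, and any part of a match in those calls, was not tested. Each is printed from 5′ to 3′ on the strand of its gene with the core in capitals. In Gclm (plus strand, chr3:122245307-122245606) the core began at -134 from the start, in Srxn1 (plus strand, chr2:152105274-152105573) at 28, in Txnrd1 (plus strand, chr10:82858956-82859255) at -92 and in Nfe2l2 (minus strand, chr2:75704614-75704913) at -240. In the first 3 the core lies on the opposite strand, so that the capitals show its reverse complement.
Gclm promoter: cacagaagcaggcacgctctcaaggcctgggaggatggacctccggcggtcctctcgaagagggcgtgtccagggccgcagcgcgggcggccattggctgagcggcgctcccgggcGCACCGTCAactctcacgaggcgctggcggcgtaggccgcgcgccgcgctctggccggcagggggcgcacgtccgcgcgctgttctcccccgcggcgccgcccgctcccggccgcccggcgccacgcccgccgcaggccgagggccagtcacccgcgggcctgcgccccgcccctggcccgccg
Srxn1 promoter: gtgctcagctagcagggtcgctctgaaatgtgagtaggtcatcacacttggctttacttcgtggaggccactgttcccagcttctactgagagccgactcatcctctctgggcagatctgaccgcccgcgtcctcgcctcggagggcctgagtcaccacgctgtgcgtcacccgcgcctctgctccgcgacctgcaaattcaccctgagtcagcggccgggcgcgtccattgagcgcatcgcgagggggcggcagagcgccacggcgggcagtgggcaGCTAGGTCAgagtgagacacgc
Txnrd1 promoter: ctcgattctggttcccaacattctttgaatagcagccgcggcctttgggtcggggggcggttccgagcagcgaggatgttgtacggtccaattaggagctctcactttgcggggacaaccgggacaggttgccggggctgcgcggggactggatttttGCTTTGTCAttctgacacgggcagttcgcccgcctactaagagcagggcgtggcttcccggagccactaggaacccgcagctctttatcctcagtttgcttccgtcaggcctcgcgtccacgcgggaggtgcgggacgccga
Nfe2l2 promoter: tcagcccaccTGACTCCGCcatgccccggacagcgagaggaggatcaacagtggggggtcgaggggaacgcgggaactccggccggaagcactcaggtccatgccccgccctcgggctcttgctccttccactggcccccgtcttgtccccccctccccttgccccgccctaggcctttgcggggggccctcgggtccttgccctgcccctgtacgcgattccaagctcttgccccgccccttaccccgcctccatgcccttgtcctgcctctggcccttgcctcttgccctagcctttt
No match was found in the windows of Keap1, Nqo1, Slc7a11 and Gpx2 or in the other 2 windows of Txnrd1, which says only that these letters are not in these stretches. Gclc and Gsta4 were named only.

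The first question was in which cells each gene is expressed. The 6 types were put in order of their mean CPM over atlas libraries, and neighbours were compared within libraries by an exact two-sided sign-flip test of log2(CPM + 1), with Benjamini-Hochberg adjustment over the 50 neighbour pairs of all genes. Of these, 15 passed at 0.05, and 14 could not reach an unadjusted p of 0.05 because only 4 libraries held enough hepatocytes. Differences from hepatocytes are therefore given as values.

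**Figure D1:**
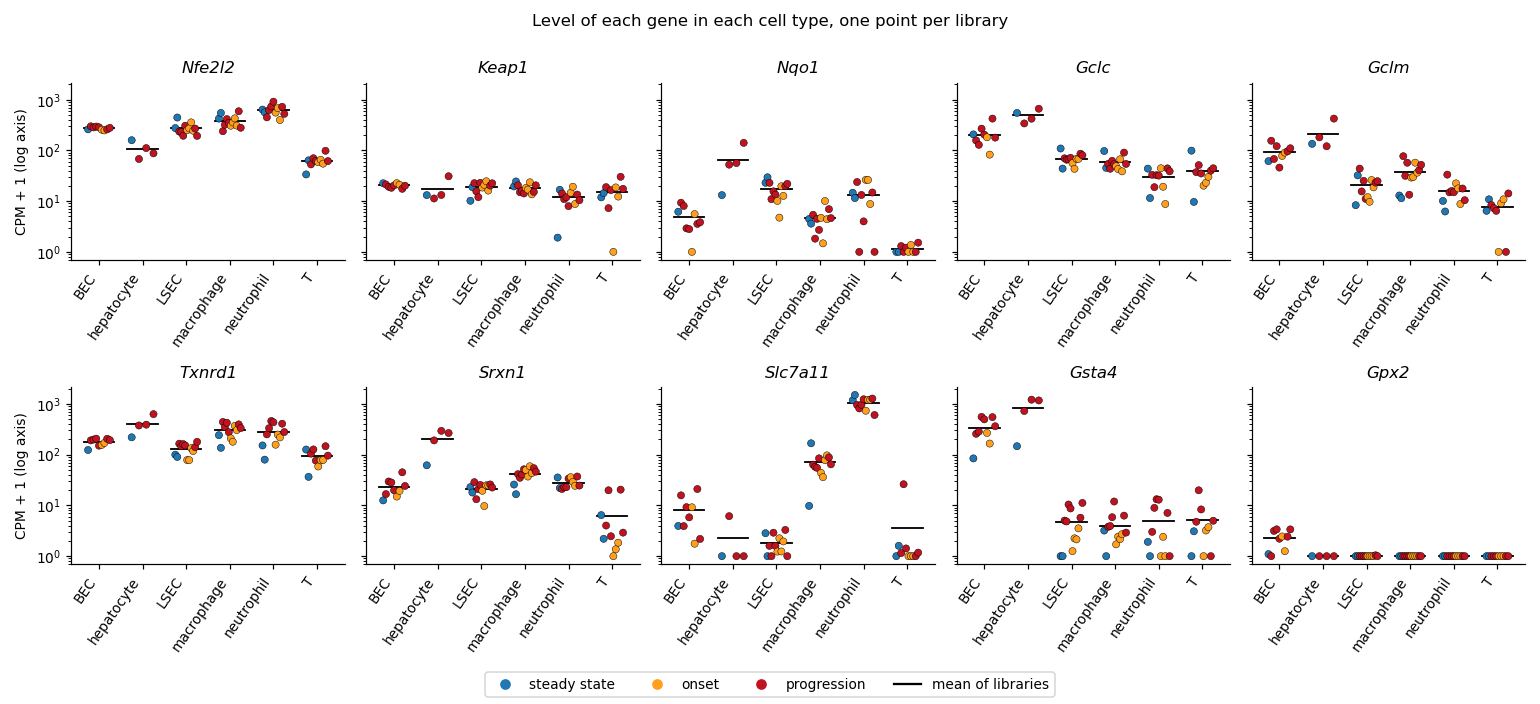
CPM + 1 on a log axis for each of the 10 genes in the 6 cell types, where a point is an atlas library with at least 20 cells of the type, colours give the stage of the diet and the bar is the mean of the libraries. Slc7a11 stood apart in neutrophils (mean 1062 CPM), Gsta4 in hepatocytes and BECs (means 815 and 336 CPM), and Gpx2 was near 0 outside BECs.

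Nfe2l2 was highest in neutrophils, in all 11 libraries that held them. Its mean level was 618 CPM ± 145 (SD, n = 11) in neutrophils and 380 CPM ± 106 (SD, n = 12) in macrophages, a log2 difference of 0.71 within libraries (adjusted p = 0.0244, exact sign-flip test). Neither macrophages against BECs (273 CPM) nor BECs against LSECs (272 CPM) passed the test (adjusted p = 0.0868 and 0.222, exact sign-flip test). LSECs were above hepatocytes (105 CPM) in 4 of 4 libraries by 1.29 on the log2 scale, and T cells (61.1 CPM) came last. Keap1, which encodes the adaptor that targets NRF2 for degradation, had means between 10.8 CPM in neutrophils and 19.4 CPM in BECs, and none of its 5 neighbour pairs passed the test.

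Slc7a11 encodes xCT, the transporter that brings in cystine for glutathione synthesis. Neutrophils held 18924 of its 34127 UMIs in all cells, or 55.5%. Their mean level was 1062 CPM ± 270 (SD, n = 11), against 69.5 CPM ± 39.1 (SD, n = 12) in macrophages and 7.10 CPM ± 6.56 (SD, n = 9) in BECs, and the first was higher in 11 of 11 libraries by 4.05 on the log2 scale (adjusted p = 0.0244, exact sign-flip test). Macrophages were above BECs in 9 of 9 libraries (adjusted p = 0.0244, exact sign-flip test), and no pair from BECs downward passed the test. With each cell thinned to 1500 UMIs, 58.4% ± 12.9 (SD, n = 11) of neutrophils had a Slc7a11 UMI, or 69.8% without thinning. LSECs, which hardly express the gene, had 0.161% ± 0.174 (SD, n = 12) after thinning, at median depths of 2519 UMIs per neutrophil and 4685 UMIs per LSEC. Barcodes with at most 100 UMIs, which hold mostly free RNA, had 3.86 to 107 CPM of Slc7a11.

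Neutrophils fell into a pair of clusters with different Slc7a11 levels. The larger one had 692 to 1992 CPM over 11 libraries, with a mean of 1373 CPM ± 398 (SD, n = 11), and the smaller one 409 to 868 CPM over 6 libraries, with a mean of 567 CPM ± 173 (SD, n = 6). Nqo1 ran the other way, with means of 3.70 CPM and 32.6 CPM. All 6 libraries of the smaller cluster were of protocol A, where the larger one had 2.12 to 15.7 CPM of Nqo1. The smaller cluster also had 4 markers of endothelium other than LSECs, a type with a mean of 88.1 CPM of Nqo1. The median UMI count of the smaller cluster was 1.31 times that of its libraries, against 0.457 times for the larger one. The part of these in the values was not tested. In macrophages, the clusters with Kupffer cell markers had less Slc7a11 than the other macrophage clusters in 12 of 12 libraries (means 25.8 and 105 CPM).

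Gclc and Gclm encode the catalytic and the modifier subunit of glutamate-cysteine ligase, the rate-limiting enzyme of glutathione synthesis. Both were highest in hepatocytes, in 4 of 4 libraries (means 492.9 and 214 CPM), followed by BECs. BECs had 203 CPM ± 97.7 of Gclc and 90.9 CPM ± 33.7 of Gclm (SD, n = 9), above LSECs and macrophages respectively in 9 of 9 libraries (both adjusted p = 0.0244, exact sign-flip test). For Gclc, LSECs (68.1 CPM) were above macrophages (57.2 CPM; adjusted p = 0.0300, exact sign-flip test) and macrophages above T cells (38.0 CPM; adjusted p = 0.0244, exact sign-flip test). For Gclm, macrophages (36.5 CPM) were above LSECs (19.9 CPM; adjusted p = 0.0358, exact sign-flip test). Low-UMI barcodes had 19.9 to 143.7 CPM of Gclc, a range that holds the means of LSECs, macrophages and T cells. They had 3.865 to 47.66 CPM of Gclm, a range that holds the means of macrophages and LSECs.

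The subunits split BECs in different ways. Clusters with large duct markers had 375 CPM ± 166 of Gclc against 87.3 CPM ± 32.5 in the other BECs (SD, n = 9) and were higher in 9 of 9 libraries. Gclm was lower in large duct clusters in 9 of 9 libraries (84.0 and 96.1 CPM). Gsta4 had 669 CPM ± 284 in large duct clusters and 101 CPM ± 51.7 in the others, and Srxn1 33.7 CPM ± 10.9 and 13.7 CPM ± 3.86 (SD, n = 9), both higher in 9 of 9 libraries. These are descriptions with no test.

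Txnrd1, cytosolic thioredoxin reductase, was abundant in hepatocytes (404 CPM), macrophages (305 CPM ± 98.3, SD, n = 12) and neutrophils (274 CPM ± 124, SD, n = 11), and macrophages and neutrophils did not pass the test against each other (adjusted p = 0.157, exact sign-flip test). Neutrophils were above BECs (177 CPM) in 8 of 8 libraries, and BECs above LSECs (128 CPM) in 8 of 9 (both adjusted p = 0.0300, exact sign-flip test). Srxn1, sulfiredoxin, which restores oxidised peroxiredoxins, had its highest mean in hepatocytes (203 CPM), then 40.8 CPM ± 12.1 (SD, n = 12) in macrophages. The latter were above neutrophils (27.1 CPM; adjusted p = 0.0349, exact sign-flip test). T cells had 5.26 CPM and were below LSECs in 10 of 10 libraries (adjusted p = 0.0244, exact sign-flip test). Low-UMI barcodes had 40.7 to 229 CPM of Txnrd1, a range that holds the means of BECs and LSECs. They had 4.17 to 42.1 CPM of Srxn1, a range that holds the means of all types but hepatocytes.

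Nqo1, the NAD(P)H quinone reductase often used as the readout of NRF2, was sparse in most of these cells. Hepatocytes had 64.7 CPM ± 53.8 (SD, n = 4), LSECs 16.0 CPM ± 6.98 (SD, n = 12), neutrophils 12.2 CPM ± 9.30 (SD, n = 11), and BECs and macrophages 3.80 and 3.56 CPM. T cells had 8 UMIs in all and were below macrophages in 10 of 10 libraries (adjusted p = 0.0244, exact sign-flip test). Gsta4, a glutathione transferase for lipid peroxidation products such as hydroxynonenal, was found in hepatocytes (815 CPM ± 498, SD, n = 4) and BECs (336 CPM ± 168, SD, n = 9), and BECs held 72.1% of its 40958 UMIs. BECs were above T cells, the next in the order, in 8 of 8 libraries (adjusted p = 0.0300, exact sign-flip test), and the means of the other 4 types lay between 2.99 and 4.10 CPM. In low-UMI barcodes Gsta4 had 1.73 to 178 CPM, and the low levels outside hepatocytes and BECs lie within or below that range. Gpx2, a glutathione peroxidase of epithelia, had 145 UMIs in all cells, of which 109 were in BECs and 32 in unnamed cells. BECs were above LSECs in 8 of 9 libraries (adjusted p = 0.0300, exact sign-flip test) at a mean of only 1.26 CPM.

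The second question was how the levels moved with the diet. Sums per library were fitted for each type with stage and protocol as terms (edgeR quasi-likelihood test, Benjamini-Hochberg adjustment over all genes tested), and DDC here is the mean of onset and progression. Fold changes include the protocol term, so that where protocols are unevenly spread they can differ from the ratio of the mean CPM.

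Macrophages were the only type with members past the threshold against steady state in the fit as planned. Of the 9 members that passed the filter on low counts (Gpx2 did not), 3 rose and none fell, beside 767 of 13013 genes (5.89%) called in either direction. The 3 were Srxn1, Gclm and Txnrd1.

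Srxn1 had 24.8 CPM at D0 A and 15.6 CPM at D0 B. At onset it had 49.0 CPM (D3 A), 36.1 CPM (D3 B), 58.1 CPM (D5 A) and 42.5 CPM (D5 B), and at progression 34.0 to 53.3 CPM with a median of 42.8 CPM. All 10 DDC libraries lay above both steady state libraries, and the fitted log2 fold change was 1.30 ± 0.26 (SE; adjusted p = 0.0137). Gclm had 11.9 and 10.4 CPM at D0 A and D0 B, then 28.2 CPM (D3 A), 29.0 CPM (D3 B), 56.4 CPM (D5 A) and 35.5 CPM (D5 B), and 12.4 to 76.02 CPM at progression with a median of 45.5 CPM. Here too all 10 DDC libraries lay above D0, although D25 B did so by little, and the log2 fold change was 2.22 ± 0.57 (SE; adjusted p = 0.0352). Txnrd1 had 242 and 136 CPM at D0 A and D0 B, 209 CPM (D3 A), 179 CPM (D3 B), 370 CPM (D5 A) and 305 CPM (D5 B) at onset, and 276 to 441 CPM at progression with a median of 371 CPM. The D3 libraries overlapped with steady state, the later 8 libraries did not, and the log2 fold change was 0.93 ± 0.23 (SE; adjusted p = 0.0333).

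**Figure D2:**
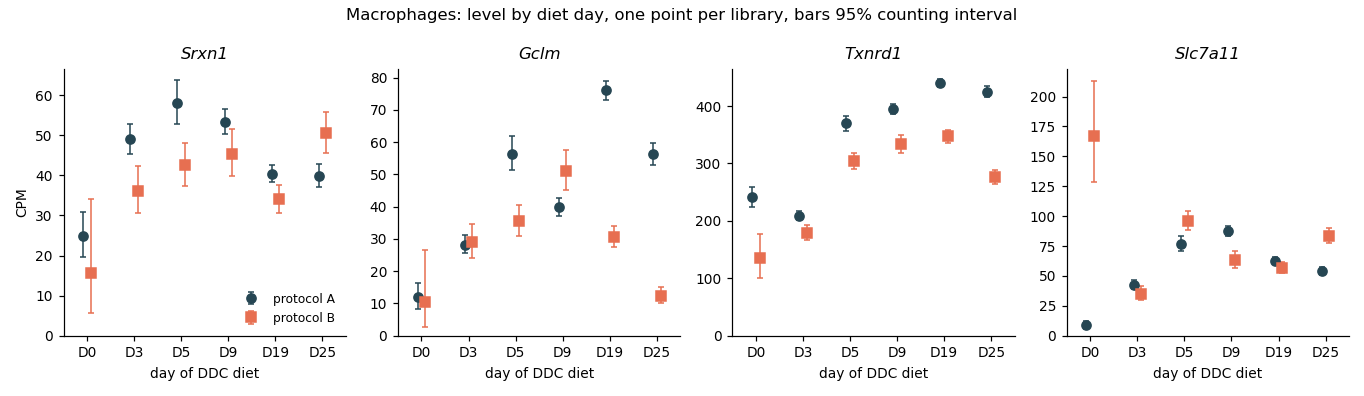
CPM of Srxn1, Gclm, Txnrd1 and Slc7a11 in macrophages by day of the diet, where each point is a library of protocol A (circles) or B (squares) and bars are 95% Poisson intervals, which cover counting error only. Srxn1 and Gclm were lowest in the D0 libraries of both protocols, and Slc7a11 was at 8.79 CPM in D0 A and 167 CPM in D0 B, on either side of all DDC libraries.

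These calls rest on the D0 libraries, of which D0 B held 72 macrophages. Without D0 A all 3 were lost (adjusted p = 0.301 for Srxn1, 0.620 for Gclm and 0.268 for Txnrd1), without D0 B Srxn1 kept its call while Gclm and Txnrd1 had adjusted p = 0.0636 and 0.137, and without D5 A the values for the last pair were 0.0594 and 0.0569. Txnrd1 also lost its call without D25 A (adjusted p = 0.0505). Over all libraries left out in turn, the log2 fold changes were 1.26 to 1.52 for Srxn1, 1.65 to 2.36 for Gclm and 0.82 to 1.12 for Txnrd1. Gclm and Txnrd1 also lost their calls without the protocol term, and Gclm lost its call with clusters at resolution 0.8. Clusters with Kupffer cell markers made up 86.7% of macrophages in D0 A and 36.1% in D0 B, against 33.2% to 72.4% in the DDC libraries of protocol A and 18.4% to 25.9% in those of protocol B. Within these clusters alone, the log2 fold changes were 0.96 for Srxn1, 1.90 for Gclm and 0.75 for Txnrd1 (adjusted p = 0.135, 0.0524 and 0.226). The summed level of the 16 BEC markers in macrophages was 116 to 125 CPM at D0 and 458 to 5864 CPM under DDC, and without Spp1, which macrophages also express, it was 59.9 to 70.4 CPM and 55.9 to 194 CPM. Of these markers 1 was higher in all DDC libraries. The 16 hepatocyte markers summed to 190 to 986 CPM at D0 and 106 to 398 CPM under DDC, with none at 0. In low-UMI barcodes the medians at steady state, onset and progression were 9.77, 8.19 and 22.1 CPM for Gclm, 12.1, 16.8 and 22.6 CPM for Srxn1, and 67.3, 89.1 and 174 CPM for Txnrd1. The part of these in the result was not tested.

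Slc7a11 did not pass in macrophages (log2 fold change 0.30 ± 0.72, SE; adjusted p = 0.866). The D0 libraries stood on either side of the DDC libraries, which ranged from 35.1 to 95.9 CPM. Without D0 B the log2 fold change was 3.15 (adjusted p = 0.0176), without D0 A it was -1.22 (adjusted p = 0.372), and within Kupffer marker clusters it was 2.89 (adjusted p = 0.0459). Nfe2l2, with 423 and 547 CPM at D0 and 238 to 591 CPM under DDC, and Keap1, with 18.5 and 23.5 CPM and 12.6 to 22.6 CPM, did not pass either. Gclc, the partner of Gclm in the ligase, had 96.3 and 44.3 CPM at D0 and 37.7 to 89.6 CPM under DDC (log2 fold change -0.22 ± 0.21, SE; adjusted p = 0.582). Between onset and progression no member passed by edgeR, beside 48 genes (0.369%) of all, while for 2 members the unadjusted p was under 0.05 and Gsta4 was called by DESeq2. Txnrd1 had a mean of 370 CPM ± 62.1 (SD, n = 6) at progression and 266 CPM ± 87.8 (SD, n = 4) at onset (log2 fold change 0.49 ± 0.17, SE; adjusted p = 0.210). Gsta4 had 4.79 and 1.25 CPM (adjusted p = 0.0942), and in low-UMI barcodes it had medians of 88.9 and 11.7 CPM at these stages.

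In BECs all 10 members passed the filter on low counts. No member passed the test with edgeR, beside 62 of 14940 genes (0.415%), while 6 members reached an unadjusted p under 0.05 and 1, Gsta4, was called by DESeq2. Steady state is 1 library here, and the spread is taken from the others.

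Gsta4 had 83.5 CPM at D0 A. It had 268 CPM (D3 B) and 165 CPM (D5 B) at onset and 257 to 556 CPM with a median of 429 CPM at progression, so that all 8 DDC libraries lay above D0 A, and the log2 fold change was 2.29 ± 0.59 (SE; edgeR adjusted p = 0.109, DESeq2 adjusted p = 0.000970). Without D19 A the edgeR test passed (log2 fold change 2.59, adjusted p = 0.0477). Large duct clusters, in which Gsta4 was high, made up 11.7% of BECs in D0 A and 27.4% to 70.8% in DDC libraries, and without them the log2 fold change was 1.19 (adjusted p = 0.306). The 16 hepatocyte markers, among which Alb led, summed to 6845 CPM in D0 A and 1973 to 5521 CPM in DDC libraries, with none at 0, and Gsta4 in low-UMI barcodes had medians of 13.4 CPM at D0, 11.7 CPM at onset and 88.9 CPM at progression. Their part in the result was not tested. Txnrd1 had 123 CPM at D0 A and 150 to 206 CPM in the 8 DDC libraries, all higher (log2 fold change 0.89 ± 0.28, SE; adjusted p = 0.154). Large duct clusters had more Txnrd1 than the other BECs in 8 of 9 libraries (means 202 and 163 CPM). Its medians in low-UMI barcodes were 67.3 CPM at D0, 89.1 CPM at onset and 174 CPM at progression. The part of these in the values of Txnrd1 was not tested. Srxn1 had 11.6 CPM at D0 A and 13.95 to 44.0 CPM under DDC, again higher in 8 of 8 libraries (log2 fold change 1.41 ± 0.53, SE; adjusted p = 0.209), and without large duct clusters, in which it was high too, the log2 fold change was 0.79 (adjusted p = 0.385). Gclm had 60.6 CPM at D0 A and 44.9 to 154 CPM under DDC, with only D25 B below (log2 fold change 1.35 ± 0.48, SE; adjusted p = 0.194).

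**Figure D3:**
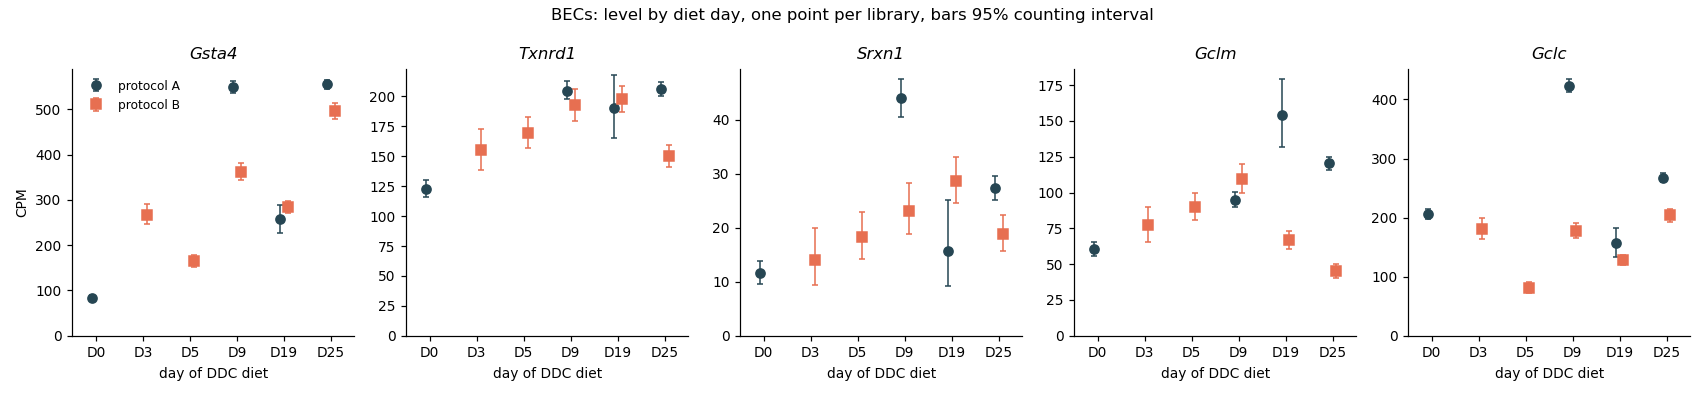
CPM of Gsta4, Txnrd1, Srxn1, Gclm and Gclc in BECs by day of the diet, where each point is a library of protocol A (circles) or B (squares) with at least 20 BECs and bars are 95% Poisson intervals. Gsta4, Txnrd1 and Srxn1 were lowest in D0 A, at 83.5, 123 and 11.6 CPM, and Gclc at D0 A (206 CPM) lay within the range of the DDC libraries.

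Gclc spread widely, with 206 CPM at D0 A and 81.7 CPM (D5 B) to 423 CPM (D9 A) under DDC, where 6 of 8 libraries lay below D0 A. The mean under DDC was 202 CPM, and the log2 fold change fitted with the protocol term was 0.53 ± 0.60 (SE; adjusted p = 0.667). Large duct clusters, in which Gclc was high too, made up 11.65% of BECs in D0 A, 35.69% in D5 B and 70.85% in D9 A. Their part in the level of Gclc was not tested. Nfe2l2 kept within 247 to 298 CPM and Keap1 within 16.5 to 21.7 CPM over all 9 libraries, the narrowest ranges of these genes in BECs by ratio. Slc7a11 had 2.94 CPM at D0 A and 0.761 to 20.1 CPM under DDC, Nqo1 5.19 CPM and 0 to 8.32 CPM, and Gpx2 0.0980 CPM and 0 to 2.38 CPM, with 7 of 8 DDC libraries of Gpx2 above D0 A. Between onset and progression no member passed in BECs, beside 0 of 14940 genes (0.0%), none reached an unadjusted p under 0.05, and by DESeq2 none of them and 14 genes of all were called.

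In hepatocytes steady state was 23 cells of protocol A with 82189 UMIs, and the 3 DDC libraries were of protocol B. Gsta4 had 146 CPM at D0 A and 1173 CPM (D9 B), 725 CPM (D19 B) and 1214 CPM (D25 B) under DDC. Srxn1 had 60.8 CPM (5 UMIs) and then 266, 190 and 294 CPM. Txnrd1 had 219 CPM at D0 A and 630, 376 and 390 CPM in the same order. These 3 genes were higher in each DDC library than at D0 A. Nqo1 had 1 UMI at D0 A (12.2 CPM, exact Poisson 95% interval 0.308 to 67.8 CPM) and then 140, 51.5 and 55.4 CPM, the last pair of which lies inside that interval. Gclc did not separate the libraries (548 CPM, then 663, 340 and 421 CPM) and neither did Gclm (134 CPM, then 423, 180 and 120 CPM), while Nfe2l2 was lower in the 3 DDC libraries (158 CPM, then 86.6, 66.9 and 110 CPM). A fit with the protocol term was not possible. Without that term 0 of the 7 members tested passed with edgeR, beside 41 of 4604 genes (0.891%), with 4 members at an unadjusted p under 0.05. The summed level of the 16 hepatocyte markers was 47196 CPM at D0 A and 15783 to 30960 CPM under DDC, and that of the 16 BEC markers 389 CPM and 180 to 603 CPM, with Krt7 and Cftr among those at 0. The part of these in the values was not tested.

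In neutrophils no member passed against steady state with edgeR, beside 20 of 8798 genes (0.227%), with 9 members tested, 3 at an unadjusted p under 0.05 and none called by DESeq2. Txnrd1 had 151 and 78.9 CPM at D0 A and D0 B, 156 CPM (D3 A), 248 CPM (D5 A) and 218 CPM (D5 B) at onset and 251 to 461 CPM with a median of 369 CPM at progression. All 9 DDC libraries lay above D0, D3 A by little (log2 fold change 1.12 ± 0.35, SE; adjusted p = 0.197). In low-UMI barcodes Txnrd1 had 40.7 to 93.8 CPM at D0, 45.4 to 121 CPM at onset and 81.7 to 229 CPM at progression. The summed level of the 16 macrophage markers in neutrophils was 379 to 695 CPM at D0 and 229 to 1140 CPM under DDC, with none at 0. Slc7a11 had 1180 and 1504 CPM at D0 A and D0 B, 734 CPM (D3 A), 1200 CPM (D5 A) and 1214 CPM (D5 B) at onset, and 605 to 1277 CPM with a median of 959 CPM at progression. Its level was thus high with and without the diet, with a fitted log2 fold change of -0.50 ± 0.30 (SE; edgeR adjusted p = 0.532). Nfe2l2 had 637 and 563 CPM at D0 and 397 to 913 CPM under DDC. Gclm had 5.26 and 9.10 CPM at D0 and 7.78 to 32.3 CPM under DDC (log2 fold change 1.11 ± 0.50, SE; adjusted p = 0.390). Between onset and progression no member passed, beside 9 genes (0.102%), with 2 members at an unadjusted p under 0.05 and none called by DESeq2.

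LSECs had 8 members past the filter, with Slc7a11 and Gpx2 left out by it. None passed against steady state with edgeR, beside 7 of 11213 genes (0.0624%), with 3 at an unadjusted p under 0.05 and none called by DESeq2. Between onset and progression none passed with edgeR, beside 5 genes (0.0446%), with 2 at an unadjusted p under 0.05, and both of these, Txnrd1 and Gsta4, were called by DESeq2 (adjusted p = 0.0415 and 0.00559). Txnrd1 had 99.0 and 89.3 CPM at D0, 77.4, 77.2, 133 and 117 CPM at D3 A, D3 B, D5 A and D5 B, and 140 to 178 CPM with a median of 156 CPM at progression. All 6 progression libraries lay above all 4 onset libraries (log2 fold change 0.64 ± 0.18, SE; edgeR adjusted p = 0.353). Nqo1 ran the other way against steady state, with 22.01 and 28.6 CPM at D0 and 3.74 to 21.9 CPM under DDC (log2 fold change -0.87 ± 0.40, SE; adjusted p = 0.391). With libraries left out in turn this value ran from -1.36 to -0.15. Gsta4 had no UMI at D0, where 3 counts over both libraries would be 1.80 CPM, and a mean of 4.51 CPM under DDC, at least 2.50-fold higher, beside the medians of 13.4, 11.7 and 88.9 CPM in low-UMI barcodes at the 3 stages. Its mean was 1.29 CPM at onset, below the level of 3 counts, and 6.65 CPM at progression, so no such bound holds for onset. The 2.50-fold bound holds only without the LSEC-marker cluster with hepatocyte markers, which came mostly from D0 A. With it counted, the fitted log2 fold change was 0.69 (adjusted p = 0.797). The 16 hepatocyte markers summed to 182 to 939 CPM in LSECs at D0 and 257 to 609 CPM under DDC, with none at 0. From onset to progression the medians of the summed markers in LSECs went from 200 to 477 CPM for macrophages, from 46.6 to 136 CPM for BECs and from 149 to 231 CPM for neutrophils, and that of Txnrd1 in low-UMI barcodes from 89.1 to 174 CPM. The part of these in the values was not tested. Nfe2l2 had 275 and 445 CPM at D0 and 192 to 356 CPM under DDC.

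T cells had 7 members past the filter, and none passed with edgeR against steady state, beside 167 of 10916 genes (1.53%), with none at an unadjusted p under 0.05 and none called by DESeq2. Nor did any pass between onset and progression, beside 1 gene (0.00916%), with 1 member at an unadjusted p under 0.05 and none called by DESeq2. The D0 libraries disagreed, as Gclc had 98.01 CPM in D0 A (59 cells) and 8.67 CPM in D0 B (1452 cells), and Txnrd1 125 and 35.6 CPM. Without D0 A, Gclc and Txnrd1 were called as higher under DDC (log2 fold changes 1.58 and 0.96, adjusted p = 0.00735 and 0.0328), and with the cluster found almost only in D0 B left out no member was called. DDC libraries of T cells had 19.2 to 50.4 CPM of Gclc and 57.6 to 146 CPM of Txnrd1. Low-UMI barcodes of D0 A and D0 B had 85.3 and 19.9 CPM of Gclc, and 93.8 and 40.7 CPM of Txnrd1. At steady state, onset and progression their medians were 52.6, 36.0 and 47.6 CPM of Gclc, and 67.3, 89.1 and 174 CPM of Txnrd1. The part of free RNA in the T cell values was not tested.

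**Figure D4:**
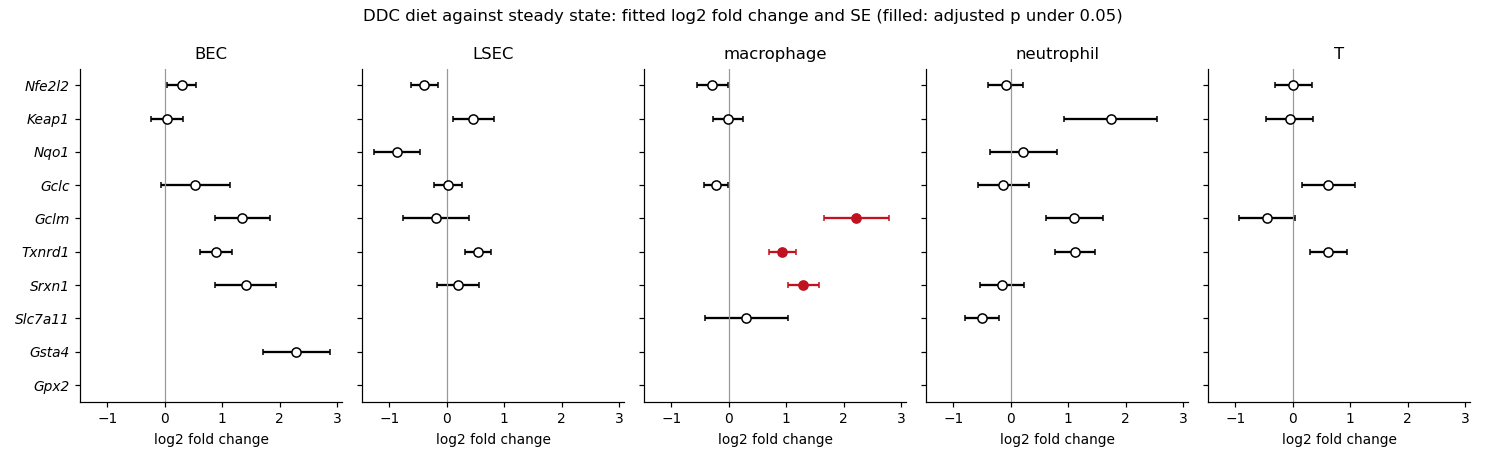
Fitted log2 fold change (points) and SE (bars) of DDC against steady state for members with a mean of at least 3 log2 CPM in each of 5 types, with edgeR. Filled red points passed at an adjusted p of 0.05, which held for Gclm, Txnrd1 and Srxn1 in macrophages and for no member in the other types.

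The rest of the pathway gave few calls in these fits, and the counts stand beside 5.89% of all genes called in macrophages and 1.53% in T cells. Of 34 other NRF2 targets, all were tested in macrophages and 1 rose, a smaller share than that of all genes. It was Gstm1, a glutathione transferase, with 59.9 and 41.7 CPM at D0 and 70.3 to 192 CPM under DDC (log2 fold change 1.22 ± 0.28, SE; adjusted p = 0.0215). Without D0 A and without D0 B its adjusted p was 0.258 and 0.0885, within Kupffer marker clusters it was 0.0522 (log2 fold change 0.99), and in protocols A and B alone it was 0.132 and 0.304. The list's median log2 fold change in macrophages was 0.56, beside 0.48 for the members and 0.07 for all genes tested. In BECs the medians were 0.79 for the 34 targets, 1.12 for the members and 0.01 for all genes, and none of the targets was called. In LSECs they were 0.01, 0.11 and 0.01, and between onset and progression 0.53, 0.42 and 0.01. In T cells 1 of 27 tested targets fell, Gstp1, with 27.2 and 122 CPM at D0 and 3.56 to 113 CPM under DDC (log2 fold change -2.56 ± 0.63, SE; adjusted p = 0.0430). D25 A overlapped with the D0 libraries. Without D0 B the log2 fold change was 1.34 (adjusted p = 0.746), without D3 A, D3 B, D5 B or D9 A the adjusted p was 0.0684 to 0.0844, and with the cluster found almost only in D0 B left out it was 0.704. None of the 12 partners and regulators of NRF2 and none of the 16 other antioxidant enzymes was called in any type. Of 11 targets of ATF4, a stress factor that also drives Slc7a11, 9 were tested in macrophages, where 1 rose and 1 fell. The one that fell was Sesn2, a stress-induced sestrin, with 70.0 and 28.7 CPM at D0 and 8.42 to 26.8 CPM under DDC (log2 fold change -1.34 ± 0.29, SE; adjusted p = 0.0190). Its call was lost without D0 A and in protocol B alone (log2 fold changes -0.91 and -0.90). The one that rose was Psat1, an enzyme of serine synthesis with a level below that set for named genes, with 3.14 and 5.21 CPM at D0 and 4.61 to 16.4 CPM under DDC (1.45 ± 0.39, SE; adjusted p = 0.0445). Its adjusted p was above 0.05 in 10 of the 12 fits that left out a library, up to 0.612 without D0 A. Atf3, a stress-induced transcription factor of that list, fell in T cells from 65.3 and 144 CPM to 19.2 to 101 CPM (-1.75 ± 0.43, SE; adjusted p = 0.0447). Without D0 B its log2 fold change was 0.55 (adjusted p = 0.837), and without D3 A, D3 B, D9 A or D19 B the adjusted p was 0.0563 to 0.0938. It was 0.0997 with the cluster found almost only in D0 B left out. Both T cell calls were also lost with DESeq2 (adjusted p = 0.286 for Gstp1 and 0.158 for Atf3), with a higher minimum of cells (0.0885 and 0.0681), with a higher minimum of UMIs (0.253 and 0.309) and at resolution 0.8 (0.0662 and 0.0573). Of 6 AHR targets, 1 fell in macrophages, Tiparp, which encodes a repressor of AHR. It had 441 and 201 CPM at D0 and 87.8 to 180 CPM under DDC (-1.04 ± 0.23, SE; adjusted p = 0.0216). Its call was lost without D0 A, in protocol A alone and in protocol B alone (log2 fold changes -0.58, -1.33 and -0.61). Neither Hmox1, heme oxygenase, nor Fth1, the ferritin heavy chain, targets of NRF2 looked at after their values were seen, was called. Macrophages had 1349 and 910 CPM of Hmox1 at D0 and 692 to 2154 CPM under DDC, and 6881 and 11929 CPM of Fth1 at D0 and 8365 to 29509 CPM under DDC. In BECs every DDC library lay above D0 A for Hmox1 (16.8 CPM, then 31.2 to 110 CPM) and Fth1 (3058 CPM, then 3348 to 5616 CPM). In hepatocytes this held for Fth1 (7300 CPM, then 17682 to 28766 CPM) but not for Hmox1 (12.2 CPM, then 10.3 to 147 CPM). In neutrophils and T cells the stages overlapped for both genes, and in LSECs they did for Fth1. For Hmox1 in LSECs steady state (91.7 and 72.3 CPM) overlapped with onset (59.8 to 89.5 CPM). All progression libraries lay above both, at 123 to 220 CPM. Summed macrophage markers in LSECs also rose between onset and progression (medians 200 and 477 CPM), and their part was not tested.

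The third comparison set recovery after the diet (STOP) beside the D19 library of the same protocol. It is 1 library against 1 library, so values are given with exact Poisson 95% intervals that cover counting error only, and there is no test of the condition. In hepatocytes Gsta4 had 725 CPM (611 to 856) at D19 and 392 CPM (369 to 416) at STOP. Srxn1 had 190 CPM (134 to 262) and 72.6 CPM (62.9 to 83.4), Nqo1 51.5 CPM (24.7 to 94.6) and 14.2 CPM (10.1 to 19.4), and Gclc 340 CPM (263 to 432) and 198 CPM (182 to 216). In D0 A, which was of the other protocol, Srxn1 and Nqo1 had 60.8 and 12.2 CPM (5 UMIs and 1 UMI). Gsta4 there (146 CPM) lay below its level at STOP, and Gclc (548 CPM) lay above its levels at both D19 and STOP. D0 B, of the same protocol as STOP, held only 9 hepatocytes, below the limit of 20. Its Gsta4 level was 334 CPM (201 to 521, 19 UMIs), an interval that holds the level at STOP. Its Gclc level was 70.2 CPM (19.1 to 180, 4 UMIs), below that at STOP. Srxn1 had 2 UMIs in D0 B and Nqo1 none. D19 held only 25 hepatocytes, of which 3 carried its 10 UMIs of Nqo1. Nfe2l2 was higher at STOP (178 CPM, 163 to 195) than at D19 (66.9 CPM, 35.6 to 114), as it was in macrophages (377 and 320 CPM) and LSECs (291 and 231 CPM).

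BECs showed the same 4 genes lower at STOP than at D19. Gsta4 had 284 CPM (271 to 297) at D19 and 168 CPM (157 to 181) at STOP, Gclc 128 CPM (119 to 137) and 80.5 CPM (72.4 to 89.2), Srxn1 28.6 CPM (24.7 to 33.0) and 18.2 CPM (14.5 to 22.6), and Nqo1 7.04 CPM (5.16 to 9.39) and 2.22 CPM (1.07 to 4.09). Over the protocol B libraries on the diet, the lowest levels in BECs were 165 CPM of Gsta4 and 81.7 CPM of Gclc (D5 B). For Srxn1 and Nqo1 they were 13.95 and 0 CPM (D3 B). STOP thus lay within the range of these libraries for Gsta4, Srxn1 and Nqo1, and just below it for Gclc. Txnrd1 was lower at STOP without overlap of the intervals in BECs, LSECs, macrophages, neutrophils and T cells, with 347 CPM (336 to 359) and 227 CPM (213 to 240) in macrophages. Its intervals in hepatocytes overlapped. Gclm did not separate the libraries in BECs (66.8 and 67.4 CPM) or macrophages (30.6 CPM in both), and was higher at STOP in LSECs, with 14.6 CPM (10.3 to 19.98) at D19 and 25.0 CPM (20.4 to 30.3) at STOP. Slc7a11 was higher at STOP in neutrophils, with 815 CPM (738 to 898) at D19 and 1587 CPM (1498 to 1680) at STOP, and in macrophages (80.9 CPM at STOP and 56.7 CPM at D19). In BECs it had 8.22 CPM at STOP, from 37 UMIs in 3 of 365 cells, and 2.91 CPM at D19, from 19 UMIs in 6 of 411 cells, so that the share of cells ran the other way. Gclc in neutrophils had 72.8 CPM at STOP, from 54 UMIs in 20 of 268 cells, and 17.9 CPM at D19, from 9 UMIs in 9 of 168 cells, with overlapping intervals for the share of cells (4.62% to 11.3% and 2.48% to 9.93%). The other genes whose intervals did not overlap were Keap1 in macrophages, higher at STOP (20.3 CPM, and 14.003 CPM at D19), and Gsta4 in T cells, lower at STOP (0.421 CPM, and 3.77 CPM at D19). Large duct clusters made up 44.8% of BECs at D19 B and 34.5% at STOP, and Kupffer marker clusters 18.4% and 38.2% of macrophages. Their part in these values was not tested.

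**Figure D5:**
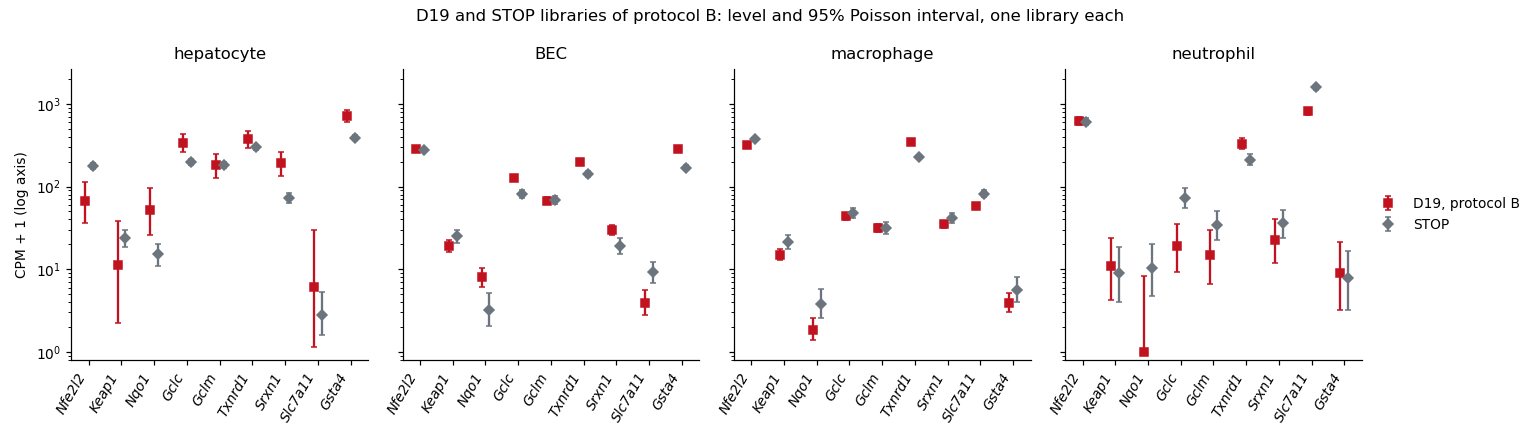
CPM + 1 on a log axis with exact Poisson 95% intervals for 9 of the 10 genes (Gpx2 left out) in hepatocytes, BECs, macrophages and neutrophils of the D19 library of protocol B (squares) and the STOP library (diamonds). Gsta4, Srxn1, Gclc and Nqo1 were lower at STOP than at D19 in hepatocytes and BECs, and Slc7a11 was higher in neutrophils (1587 against 815 CPM).

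Finally, each gene's pattern over the 58 sums of atlas libraries and types was set against 8786 genes with a mean of at least 10 CPM. These are descriptions, since sums of 1 library share its depth and protocol and sums of 1 type share the type. Slc7a11 was most like Clec4e, Clec5a and Trem1 (Pearson r = 0.963, 0.952 and 0.948), which encode receptors of myeloid cells. Gsta4 was most like Echdc2, Ifi27l2b and Krt8 (0.942, 0.937 and 0.936), and Gclc like Hspa9 and Ttr (0.912 and 0.886). Nfe2l2 was most like Trib1, Tlr2 and Fgd4 (0.897, 0.895 and 0.879), Srxn1 like Aldh2, Plin2 and Trf (0.881, 0.843 and 0.816), and Gclm like Cmbl, Dhrs4 and Zfyve21 (0.847, 0.844 and 0.844). Gpx2 came closest to Adgrg7, Itgb6 and Gabrp (0.839, 0.838 and 0.830), Nqo1 to Enho, Fmo1 and Kyat3 (0.829, 0.828 and 0.818), Txnrd1 to Lpin2, Nek6 and Plin2 (0.796, 0.779 and 0.770) and Keap1 to Erlec1, Rxylt1 and Polr3c (0.769, 0.766 and 0.759).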

How the data were processed

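Droplet-based 3′ scRNA-seq of mouse liver was measured in 13 libraries. Per the labels, kallisto and the GRCm38 build were used; its version and the annotation are not given in the sources used here. The files the authors deposited hold UMI counts by gene and barcode, neither normalized nor filtered. Barcodes with at least 1500 UMIs were kept (Methods of the study). Counts were log-normalized, the 10 genes and the lists read out as results were left out, and cells were clustered with scanpy 1.11.5 (2000 variable genes, 40 components, 25 neighbours, Leiden resolution 1.5, 63 clusters). A cluster was named from at least 3 detected markers (in at least 10% of cells, at least 2-fold), and 17257 cells (18.1%) stayed unnamed. How markers become names was adjusted after clusters had been seen. Doublets called by Scrublet were kept and removed in an alternative.

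Counts were summed per library and type with at least 20 cells and fitted with edgeR 4.0.16 (R 4.3.3; TMM, filterByExpr, quasi-likelihood test, Benjamini-Hochberg at 0.05) with stage and protocol as terms. The script was tested on simulated data. Alternatives included DESeq2 1.42.0, other normalization, no filter, stricter cell limits, single protocols, no protocol term and each library left out. Replicate numbers are the protocols, which differ in sort and kit, so the protocol term is the block of this design. The members and lists were chosen with earlier results of these data known. Named genes were the 10 members, per list and comparison up to 3 called genes with the largest change at a mean of at least 4 log2 CPM, and for each member the 3 other genes of most similar pattern, of which not every one is reported here. Depth was 29307190 to 108602421 UMIs per library. The precision of a value depends on how many cells of its type a library held, and intervals cover counting error only. The level of 3 counts was the floor for a gene with no UMI.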

Additional observations from a re-analysis of the deposited data

Results flagged for a closer look

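In groups of 4 to 6 libraries, 5 of 65 groups of a gene, type and stage held a library that stood apart from the others (7.69%). The share that chance would give with such counts was not tested. At progression, Txnrd1 in BECs was lowest in D25 B (150 CPM), with the other 5 libraries at 190 to 206 CPM. Gsta4 in macrophages was highest in D25 B (10.9 CPM from 83 UMIs), above 1.91 to 5.29 CPM in the others. Gclm in neutrophils was highest in D19 A (32.3 CPM from 177 UMIs), above 9.45 to 16.7 CPM. Slc7a11 in T cells was highest in D25 A (25.2 CPM, which is 4 UMIs in 58 cells), above 0 to 0.419 CPM. Gpx2 in LSECs was highest in D9 A (0.0394 CPM), which is 1 UMI beside none in the others. Causes were not tested.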

How the results depend on the processing

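The number of members called against steady state in macrophages (3) fell to 1 without the replicate block (no protocol term; Srxn1) and 0 in protocol B alone. It was 1 in protocol A alone and 1 within Kupffer marker clusters, where all 3 calls were lost and the 1 called was Slc7a11. It lay between 0 and 3 when each library was left out in turn. It was 0 without D0 A and 1 (Srxn1) without D5 A. In BECs it rose from 0 to 1 with DESeq2 and 4 with no filter on low counts, and was 0 to 1 with libraries left out. In T cells it was 2 in protocol B alone and 0 to 2 with libraries left out. Between onset and progression it rose from 0 to 2 with DESeq2 and 1 with no filter in LSECs, to 1 with either in macrophages, and to 1 with no filter in neutrophils. The log2 fold change of Slc7a11 in macrophages (0.30) turned to -0.057 with DESeq2, -0.10 without the replicate block, -1.22 in protocol B alone and -1.22 without D0 A, and that of Keap1 in neutrophils (1.74, from 1 and 3 UMIs at D0) to -1.00 without D0 A, with a range of -1.00 to 3.76 over the libraries left out. In T cells, Gstp1 (-2.56) turned to 0.84 in protocol A alone, with -3.36 to 1.34 over the libraries left out, and Atf3 (-1.75) had a range of -2.41 to 0.55. For Slc7a11 in macrophages that range was -1.22 to 3.15. The cause of these was not tested. The fit without the replicate block changed no call of members in other types. The remaining alternatives, among them 4 of the order of cell types, kept the counts of member calls and of separate intervals within 1.5 times, although Gclm in macrophages lost its call at resolution 0.8 (adjusted p = 0.0529). Without the protocol term the list genes Gstp1, Atf3, Psat1, Sesn2 and Tiparp lost their calls (adjusted p = 0.0632 to 0.154). Adjusted p over alternatives other than left-out libraries ran from 0.000114 to 0.341 for Srxn1, 1.51e-09 to 0.587 for Gclm and 0.00186 to 0.316 for Txnrd1 in macrophages. For hepatocytes no fit with the protocol term could be made. Depth limits Gpx2 in all types and Nqo1, Slc7a11 and Gsta4 where they are near the level of free RNA. The means of Gclc and Gclm outside hepatocytes and BECs also lay within the range of free RNA. So did those of Srxn1 in all types but hepatocytes and of Keap1 in all types but BECs. This also held for Txnrd1 in BECs, LSECs and T cells, and for Nfe2l2 in BECs, LSECs and hepatocytes. The count of all genes called moved by over 1.5 times under some alternatives. Against steady state it was 62 in BECs (0 to 308 with a library left out, 9 to 1203 otherwise), 7 in LSECs (2 to 249, 2 to 441), 767 in macrophages (8 to 836, 6 to 1509), 20 in neutrophils (9 to 38, 2 to 319) and 167 in T cells (0 to 1866, 2 to 2029). Between onset and progression it was 0 in BECs (0 to 23, 0 to 243), 5 in LSECs (0 to 32, 0 to 379), 48 in macrophages (8 to 315, 3 to 860), 9 in neutrophils (0 to 20, 0 to 207) and 1 in T cells (0 to 5, 0 to 89). With no filter the median log2 fold change of all genes against steady state moved to 0.31 in LSECs, 0.43 in macrophages, 0.34 in neutrophils and 0.38 in T cells. Counting the LSEC cluster with hepatocyte markers as LSECs and leaving out the D0 B cluster of T cells were alternatives chosen after seeing the data, and neither changed a call of members, though the first lowered the fitted log2 fold change of Gsta4 in LSECs to 0.69.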

Other observations

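In cell types outside the 6 described, Nqo1 had its highest mean in endothelium other than LSECs, with 88.1 CPM ± 27.2 (SD, n = 8 libraries) from 1395 UMIs, beside 16.0 CPM in LSECs. Slc7a11 was found in monocytes, at 162 CPM ± 73.4 (SD, n = 7), and in mature DCs, at 94.2 CPM ± 39.2 (SD, n = 8), beside 23.0 CPM ± 15.4 in cDC2 and 7.90 CPM ± 9.88 in cDC1 (SD, n = 12). Monocytes also had 598 CPM ± 234 (SD, n = 7) of Nfe2l2, beside 618 CPM in neutrophils. Mature DCs had 164 CPM ± 92.3 (SD, n = 8) of Gclc, beside 31.6 CPM in cDC1 and 21.3 CPM in cDC2. In stellate cells or fibroblasts Gsta4 had 32.8 CPM ± 8.60 (SD, n = 6), where the means in B cells, monocytes, pDCs, cDC1, cDC2, mature DCs and other endothelium lay at 0.343 to 3.43 CPM.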
